A study of Homo sapiens with 12 samples.

Results

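The change in gene expression that went with erlotinib resistance was compared between FaDu and Cal27, 2 human head and neck squamous carcinoma lines, as the difference between the ErlR effect in FaDu and the ErlR effect in Cal27. The comparison used 8 of the 12 libraries of the study, 2 each of FaDu parental, FaDu ErlR, Cal27 parental and Cal27 ErlR, and all 15310 genes that passed a filter on low counts. FaDu comes from a squamous carcinoma of the hypopharynx and was grown in EMEM, and Cal27 comes from a squamous carcinoma of the tongue and was grown in DMEM. Both media held 10% FBS, and the labels give the genotype WT to parental and resistant cells alike. By the study's methods, the ErlR cells were selected in stepwise rising erlotinib with 3 days on and 1 day off, were kept under drug, and were cultured without drug for 24 hours before use. Each ErlR model is a single selected population, so that a difference that belongs to the line cannot be told apart from one that belongs to that selection, and the culture medium differs between the lines too. The 2 libraries of a group are biological replicates, and p-values measure the spread between them.

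Erlotinib blocks the kinase of EGFR, the receptor that in squamous carcinoma cells drives the RAS, RAF, MEK and ERK cascade and the PI3K and AKT cascade. ERK activity raises its own inhibitors, among them the DUSP phosphatases and the Sprouty proteins, so that their mRNAs follow the output of the cascade. Cells that outlast EGFR inhibition are known to use other receptors or RAS to reach ERK, to move towards a mesenchymal state, or to alter NF-kB and interferon signalling.

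The libraries held 16383694 to 21867912 gene counts each. The labelled cell type held, since none of the 12 squamous epithelial markers was under 1 CPM (CPM being gene counts scaled to a common library size, with TMM normalization) in every library, and their summed level was 4750 to 12100 CPM. The 10 leukocyte markers summed to 13.8 to 20.2 CPM in the 8 libraries. The fibroblast markers summed to 29.5 to 40.9 CPM in Cal27 parental and to at most 10.6 CPM in the other groups, with 6 of 10 markers under 1 CPM in every library and most of the sum in COL1A1. The endothelial markers summed to 31.2 to 33.3 CPM in Cal27 parental and at most 7.48 CPM elsewhere, and CDH5 alone gave 29.5 and 30.0 CPM of that sum. Replicates correlated at 0.985 to 0.989. FaDu ErlR had 178 genes at 5 CPM or more that differed over 2-fold between its libraries and Cal27 ErlR had 222, against 91 in FaDu parental and 137 in Cal27 parental.

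A gene was called when edgeR's quasi-likelihood test gave a Benjamini-Hochberg adjusted p under 0.05 and the log2 value was over 1 in size. In FaDu ErlR 278 genes were called (1.82% of those tested), 206 higher (1.35%) and 72 lower (0.47%) than in parental cells. In Cal27 ErlR 2007 were called (13.1%), 582 higher (3.8%) and 1425 lower (9.31%). The ErlR effect itself differed between the lines for 1718 genes (11.2%), of which 1192 (7.79%) had the higher value in FaDu and 526 (3.44%) the higher value in Cal27. Most of these differences came with a change in Cal27, since 819 of the 1192 were called lower in Cal27 ErlR and 302 of the 526 were called higher there. A further 501 genes (3.27%) differed without a call in either line, and 23 (0.15%) were called in 1 line although the other had the larger value. The median size of the log2 fold change over all genes was 0.25 in FaDu and 0.42 in Cal27. The number of FaDu calls rested on single libraries and fell to 24 when FaDu parental replicate 1 was left out, while the Cal27 calls fell to 1304 when Cal27 parental replicate 2 was left out. Scaling to the ERCC spike-ins moved the median of all genes by 0.48 in FaDu and by 0.01 in Cal27 on the log2 scale, and the share of interaction calls with the higher value in FaDu went from 69.4% to 93.9%. The share of FaDu calls that were rises went from 74.1% to 96.1% with it. All changes below are relative to the TMM scale, in which the median over all genes was 0.01 in FaDu and 0 in Cal27.

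**Figure D1:**
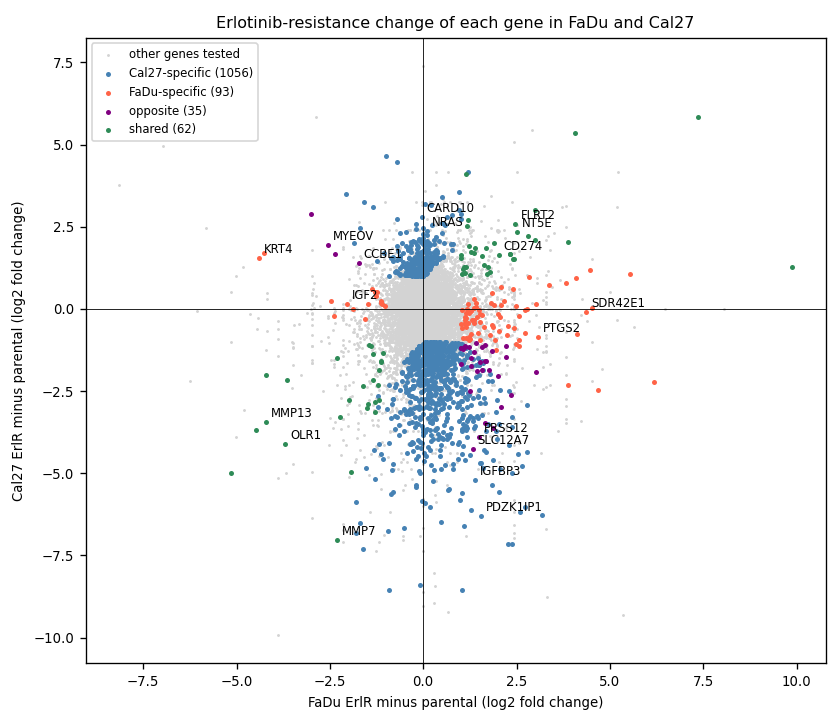
Log2 fold change of each of 15310 genes in FaDu ErlR (x axis) and Cal27 ErlR (y axis) against the parental cells of the same line, 2 libraries per group. Colours mark 62 shared, 35 opposite, 93 FaDu-specific and 1056 Cal27-specific genes, and the Cal27-specific falls below the horizontal line form the largest coloured group.

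Shared changes were few in number. Of the genes tested, 36 rose in both lines (0.235%) and 26 fell in both (0.17%), which together are 22.3% of the FaDu calls and 3.09% of the Cal27 calls. Of the FaDu falls 36.1% also fell in Cal27, against 9.31% of all genes. Of the FaDu rises 17.5% also rose there, against 3.8% of all genes. The interaction was called for 10 of these 62, and all 6 such falls were deeper in Cal27. Without a limit on the fold change, 105 genes were higher and 64 lower in both lines at an adjusted p under 0.05.

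Of the 24 genes of the YAP and TEAD list, 2 were shared rises, NT5E and AMOTL1. Another 3 were called lower in Cal27 alone. The interaction called 3 members higher and 2 lower in FaDu (20.8%, against 11.2% of all genes), among them ANKRD1 (4.21), VGLL1 (3.88) and TEAD2 (-1.34). NT5E (ENSG00000135318, GRCh38 chromosome 6, 85449584 to 85495791) encodes CD73, which makes extracellular adenosine, and gave 30.5 and 23.8 CPM in FaDu parental, 126 and 182 in FaDu ErlR, 117 and 67.8 in Cal27 parental and 523 and 418 in Cal27 ErlR. Parental and resistant libraries did not overlap in either line, and parental Cal27 lay between the FaDu groups. The log2 fold change was 2.50 ± 0.27 (SE) in FaDu and 2.34 ± 0.26 in Cal27, and their difference of 0.16 had a 95% interval that held 0 (adjusted p = 0.795, edgeR). AMOTL1, an angiomotin that binds YAP, rose by 1.06 in FaDu and 1.23 in Cal27. The FaDu call was lost without FaDu parental replicate 2 for NT5E (adjusted p = 0.0522, edgeR) and without either FaDu parental library or FaDu ErlR replicate 2 for AMOTL1 (up to 0.131).

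Of the 27 antigen presentation genes tested 1 was a shared rise, CD274, and of the 50 interferon response genes 1, IFI27. CD274 (ENSG00000120217, chromosome 9, 5450503 to 5470566), which encodes PD-L1, was at 5.34 and 7.85 CPM in FaDu parental, 20.9 and 32.5 in FaDu ErlR, 10.7 and 12.7 in Cal27 parental and 48.1 and 25.0 in Cal27 ErlR. All ErlR libraries lay above all parental libraries, with log2 fold changes of 2.02 ± 0.34 in FaDu and 1.64 ± 0.32 in Cal27. IFI27, an interferon-induced mitochondrial protein, rose by 2.41 in FaDu and 1.53 in Cal27. Other shared rises with large values were NTNG1 (3.87 in FaDu, 2.04 in Cal27), a netrin that guides axons, FLRT2 (2.47 and 2.60), a membrane protein of cell adhesion, ANTXR2 (2.99 and 2.09), a matrix receptor, and DLC1 (1.67 and 1.84), a GTPase-activating protein. ANTXR2 rested on uneven libraries, at 7.10 and 35.7 CPM in FaDu ErlR and 126 and 52.3 CPM in Cal27 ErlR. PHLDA1, an ERK-responsive gene, rose by 1.29 in FaDu and by 1.73 in Cal27. The FaDu calls of CD274, NTNG1, DLC1, ANTXR2 and PHLDA1 were lost without either FaDu parental library or without FaDu ErlR replicate 2, that of FLRT2 without replicate 1 of either FaDu group, and that of IFI27 without any single FaDu library. PHLDA1 lost its FaDu call also without either Cal27 ErlR library, and ANTXR2 without either Cal27 parental library. In Cal27, IFI27 lost its call without replicate 1 of either group, NTNG1 without parental replicate 2 or ErlR replicate 1, and ANTXR2 without either parental library or ErlR replicate 1.

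The shared falls included OLR1, MMP13 and MMP7. OLR1 (ENSG00000173391, chromosome 12, 10158301 to 10172138), the receptor for oxidised LDL, went from 26.9 and 25.7 to 2.74 and 1.27 CPM in FaDu and from 123 and 111 to 5.52 and 7.89 CPM in Cal27. No library overlapped, and OLR1 fell by 3.70 ± 0.27 in FaDu and by 4.12 ± 0.24 in Cal27 on the log2 scale (adjusted p = 0.0013 and 8.1e-06, edgeR). The collagenase MMP13 (ENSG00000137745, chromosome 11, 102942995 to 102955734) began far apart in the lines, at 73.5 and 115 CPM in FaDu parental and 3.51 and 3.87 in Cal27 parental, and was at 2.62 and 7.56 CPM in FaDu ErlR and 0.372 and 0.297 in Cal27 ErlR. It fell by 4.21 ± 0.38 and 3.44 ± 0.65. SERPINB13, a squamous serpin (fell by 2.23 and 3.30), CADM4, a cell adhesion molecule (1.98 and 2.78), and BAHCC1, a chromatin protein (1.61 and 2.34), completed the 6 falls whose smaller value was largest. The FaDu calls of SERPINB13, CADM4 and BAHCC1 were each lost when any single FaDu library was left out (adjusted p up to 0.137, edgeR).

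MMP7 fell in both lines but not by the same amount. Matrilysin, its product, cuts matrix and cell surface proteins, and the gene (ENSG00000137673, chromosome 11, 102520508 to 102530753, minus strand) gave 4.21 and 4.61 CPM in FaDu parental, 0.997 and 0.762 in FaDu ErlR, 29.0 and 60.1 in Cal27 parental and 0.372 and 0.297 in Cal27 ErlR. Its level in Cal27 parental was the highest of the 4 groups and that in Cal27 ErlR the lowest. On the log2 scale MMP7 fell by 2.31 ± 0.42 in FaDu and by 7.03 ± 0.45 in Cal27, a difference of 4.72 ± 0.70 (adjusted p = 0.00251, edgeR). The FaDu call was lost when any single FaDu library was left out (adjusted p up to 0.132), with values of -2.52 to -2.14. The 250 bases before its start (RefSeq, GRCh38, chr11:102530748-102530997, minus strand) are printed because they hold 1 match to the AP-1 motif TGANTCA, in capitals, that begins 67 bases before the start.

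MMP7: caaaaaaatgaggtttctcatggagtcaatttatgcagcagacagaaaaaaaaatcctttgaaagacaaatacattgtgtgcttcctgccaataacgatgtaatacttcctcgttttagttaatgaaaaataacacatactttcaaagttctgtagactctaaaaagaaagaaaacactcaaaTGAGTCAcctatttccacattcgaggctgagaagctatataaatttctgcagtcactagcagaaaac

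The 4 motifs searched on both strands, within 250 bases before and 50 after the start, were TGANTCA (AP-1), CACGTG (E-box), CCAAT (NF-Y) and GGAATG (TEAD). A promoter of the 300-base length was matched for 11240 of 15310 genes, of which 4.88% held TGANTCA. Among the 26 shared falls it was in 4 of 14 matched promoters (MAB21L4, MMP7, MYH1 and SERPINB13), and in 0 of 27 of the shared rises. GGAATG was likewise in 3 of 14 and 0 of 27, against 11.1% of all matched promoters. CACGTG was in 1 of 14 and 4 of 27, against 10.0%, and CCAAT in 6 of 14 and 6 of 27. The Cal27-specific falls held TGANTCA in 40 of 579 (6.91%) and the Cal27-specific rises in 12 of 218 (5.5%). CCAAT was in 36.5% of all matched promoters, 31.4% of the Cal27-specific falls and 33.0% of the Cal27-specific rises. These shares are a description of the letters in these windows.

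**Figure D2:**
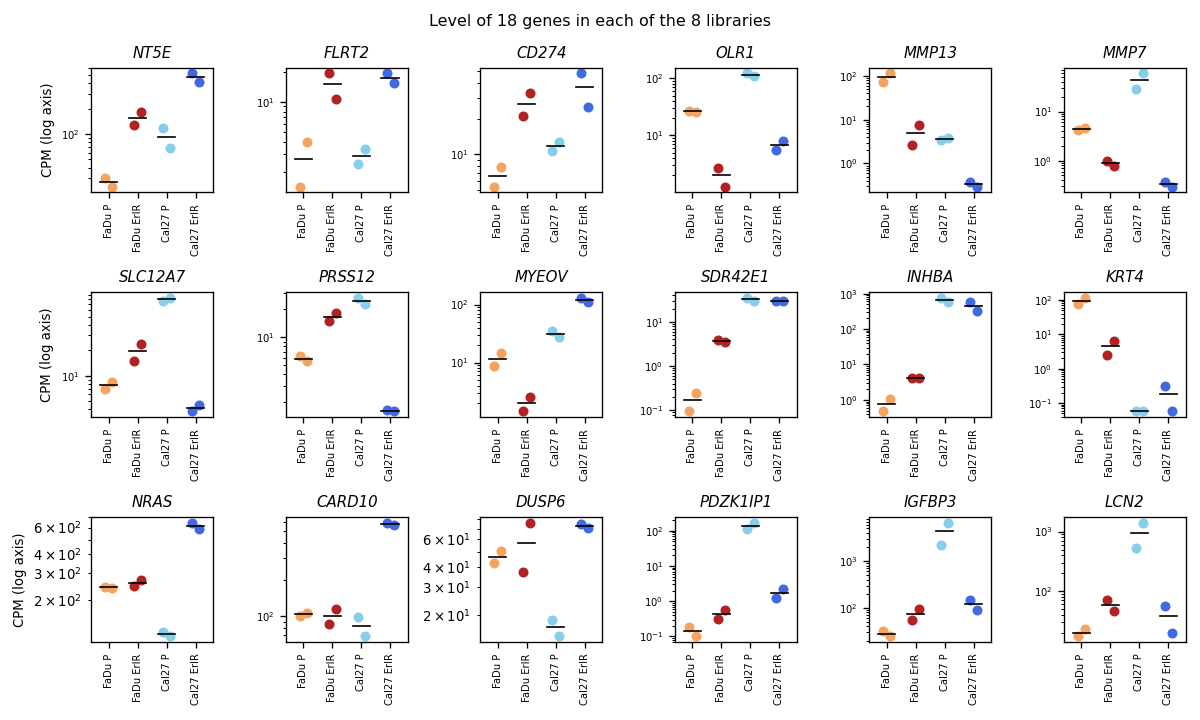
CPM of 18 genes in each of the 8 libraries (points, log axis) with the mean of each group (bar), for parental (P) and ErlR cells of FaDu and Cal27. The upper row shows shared changes, while SLC12A7, PRSS12 and MYEOV move in opposite directions in the lines, and NRAS, CARD10, PDZK1IP1, IGFBP3 and LCN2 move mainly in Cal27.

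Opposite changes were called for 35 genes, 31 that rose in FaDu ErlR and fell in Cal27 ErlR (0.202% of genes tested) and 4 the other way (0.0261%). When the fold limit was dropped, 120 genes were significant in opposite directions in both lines and by the interaction, 80 with the rise in FaDu and 40 with the rise in Cal27. Of the FaDu rises, 15% fell in Cal27, against 9.31% of all genes, and of the Cal27 falls 2.18% rose in FaDu, against 1.35%.

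SLC12A7 (ENSG00000113504, chromosome 5, 1050376 to 1112035), a potassium and chloride cotransporter, was at 6.90 and 8.51 CPM in FaDu parental, 15.1 and 23.6 in FaDu ErlR, 76.6 and 82.7 in Cal27 parental and 3.78 and 4.45 in Cal27 ErlR. The order of the lines turned over, with Cal27 far above FaDu before selection and below it after. Its log2 fold changes were 1.33 ± 0.21 and -4.27 ± 0.24, a difference of 5.60 ± 0.32 (adjusted p = 4.66e-05, edgeR). PRSS12, the secreted protease neurotrypsin, followed the same pattern with 6.29 and 5.57 CPM, then 15.1 and 18.2 in FaDu, against 26.4 and 22.6, then 1.67 and 1.60 in Cal27. The difference for PRSS12 was 5.38 ± 0.29. The inflammasome adaptor PYCARD rose by 1.77 in FaDu and fell by 1.85 in Cal27, the cyclin-dependent kinase CDK14 rose by 1.58 and fell by 1.85, and SAMD5 rose by 1.67 and fell by 3.46, from under 1 CPM in Cal27 parental.

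Of the 35 cytokine, chemokine and NF-kB feedback genes 2 were opposite, and of the 30 collagens and matrix genes 0. The cytokines IL1A (1.06 in FaDu, -1.20 in Cal27) and IL1B (1.22, -1.14), the interferon-induced exonuclease ISG20 (1.99, -2.03), the secreted glycoprotein SPARC (1.58, -1.17) and AHRR, the repressor of the aryl hydrocarbon receptor (1.85, -1.28), all rose in FaDu and fell in Cal27. In the reverse orientation, MYEOV (ENSG00000172927, chromosome 11, 69294138 to 69367726), a gene near CCND1 named for its overexpression in myeloma, gave 8.75 and 14.4 CPM in FaDu parental, 1.43 and 2.54 in FaDu ErlR, 35.4 and 27.1 in Cal27 parental and 129 and 111 in Cal27 ErlR. All 4 groups were separate, and the difference was -4.48 ± 0.40 (adjusted p = 0.000228, edgeR). CCBE1, an extracellular protein of lymphatic growth, fell by 1.73 in FaDu and rose by 1.40 in Cal27.

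FaDu-specific changes were called for 93 genes, 77 rises (0.503%) and 16 falls (0.105%), where the gene was called in FaDu, was not called in Cal27 and differed by the interaction with the larger value in FaDu. Another 86 genes were called in FaDu alone without a called difference. SDR42E1, a short-chain dehydrogenase, was at 0.0945 and 0.253 CPM in FaDu parental and 3.86 and 3.43 in FaDu ErlR, while Cal27 stayed at 30.1 to 34.6 CPM in all 4 libraries. The FaDu rise of 4.36 ± 0.34 thus ended well below the level in Cal27. PTGS2, the cyclooxygenase COX-2, went from 0.898 and 1.77 to 8.29 and 14.0 CPM in FaDu (log2 fold change 3.06 ± 0.53), and Cal27 gave 4.70 and 13.5, then 4.65 and 5.34 CPM. RNASE7, an antimicrobial ribonuclease of skin, rose by 2.71 in FaDu, with -0.74 in Cal27.

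INHBA, the subunit of activin A, rose in FaDu from 0.473 and 1.06 to 4.24 and 4.06 CPM, which is far under the 318 to 750 CPM of the Cal27 libraries, and its difference was 3.01 ± 0.53. Another pair of rises began near 0. APOBEC3G, a cytidine deaminase, was at 0.0473 and 0 CPM in FaDu parental and 0.685 and 0.762 in FaDu ErlR, and the germline antigen MAGEA3 was at 0 and 0.101 and then 0.810 and 1.08 CPM. Cal27 held both at 19.1 CPM or more. MAGEA3 shares near-identical sequence with MAGEA6, so the split of reads between them is uncertain. The interaction call of APOBEC3G was lost without any single FaDu library (adjusted p up to 0.088, edgeR) and that of MAGEA3 without FaDu parental replicate 1 (0.057).

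Among the FaDu-specific falls, KRT4 (ENSG00000170477, chromosome 12, 52806549 to 52814551), a keratin of the suprabasal mucosa, dropped from 75.8 and 113 to 2.43 and 6.54 CPM. It was at or under 0.31 CPM in each Cal27 library, so its difference of -5.96 ± 1.79 compares FaDu with a line that hardly held the transcript. IGF2, a ligand of the IGF1 receptor, fell by 2.04 in FaDu, from 7.99 and 9.06 to 2.49 and 1.65 CPM, with 1.31 to 1.78 CPM in Cal27. LIX1L fell by 1.89, the cerebellar antigen relative CDR2L by 1.28, the WNT receptor FZD2 by 1.23 and the cartilage collagen chain COL9A3 by 1.28. The differences of CDR2L, FZD2 and COL9A3 were not called without FaDu parental replicate 2, that of CDR2L also not without Cal27 ErlR replicate 1, and that of KRT4 not without any single parental library or Cal27 ErlR replicate 1 (adjusted p up to 0.454, edgeR).

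Cal27-specific changes made up the bulk, with 292 rises (1.91%) and 764 falls (4.99%), and 833 more genes were called in Cal27 alone without a called difference. In FaDu, 14.7% of these falls were under 1 CPM, against 14.2% of all genes tested. PDZK1IP1 (ENSG00000162366, chromosome 1, 47183593 to 47191044), a small membrane protein, went from 110 and 169 CPM in Cal27 parental to 1.24 and 2.25 in Cal27 ErlR, and the 4 FaDu libraries held 0.101 to 0.571 CPM. Its Cal27 log2 fold change was -6.31 ± 0.31. IGFBP3 (ENSG00000146674, chromosome 7, 45912245 to 45921874), the main carrier of IGF in serum, was at 2191 and 6554 CPM in Cal27 parental, 146 and 91.5 in Cal27 ErlR, 31.8 and 24.8 in FaDu parental and 55.3 and 93.1 in FaDu ErlR. After selection both lines thus lay between 55.3 and 146 CPM, and the difference of 6.59 ± 0.67 was called (adjusted p = 0.000396, edgeR).

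UGT8, which makes galactosylceramide, was at 4.65 and 4.78 CPM in Cal27 parental and 0.186 and 0 in Cal27 ErlR, while FaDu gave 6.33 and 9.06, then 14.0 and 17.8 CPM. PLEKHG4B, a guanine nucleotide exchange factor, fell by 6.59 in Cal27 and CCL20, a chemokine, by 4.78, both with under 3 CPM in FaDu. Their differences of 7.68 and 7.42 were larger than these falls, since the FaDu values were positive, though not called. The interaction call of CCL20 was lost without either FaDu parental library, FaDu ErlR replicate 2 or Cal27 ErlR replicate 1 (adjusted p up to 0.34, edgeR). The Cal27-specific rises had smaller values. CARD10 (ENSG00000100065, chromosome 22, 37490362 to 37519542), a scaffold that links receptors to NF-kB, was at 97.9 and 68.6 CPM in Cal27 parental and 586 and 561 in Cal27 ErlR, against 86.2 to 116 CPM in FaDu. The difference was -2.82 ± 0.25 (adjusted p = 0.000236, edgeR).

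S1PR1, the sphingosine 1-phosphate receptor, rose by 3.21 in Cal27 and the ETS factor ETV1 by 2.33. The collagenase MMP1 rose by 3.09 ± 0.94 on uneven libraries, with 1.64 and 1.54 CPM in parental and 23.9 and 3.38 in ErlR Cal27. FaDu gave 35.5 and 43.0, then 5.05 and 26.2 CPM for MMP1, a log2 fold change of -1.33 that was not called. ABO, the blood group transferase, was at 0 in both Cal27 parental libraries and at 0.062 and 0.237 CPM in Cal27 ErlR, so its fitted difference is no measure of size. The interaction call of ABO was lost without any 1 of 7 libraries (adjusted p up to 0.204, edgeR), Cal27 ErlR replicate 1 being the exception. The interaction calls of S1PR1, ETV1 and MMP1 rested on most libraries, since leaving out any 1 of 6, 5 and 6 of the 8, respectively, ended them (adjusted p up to 0.153, 0.0958 and 0.154, edgeR), Cal27 parental replicate 2 and FaDu ErlR replicate 1 among them for all 3.

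The lists that follow were described by counts and medians, beside those over all genes tested, where the median log2 fold change was 0.01 in FaDu and 0 in Cal27. In 31 lists, between 0 and 48.6% of members had an ErlR effect that differed between the lines, against 11.2% of all genes.

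**Figure D3:**
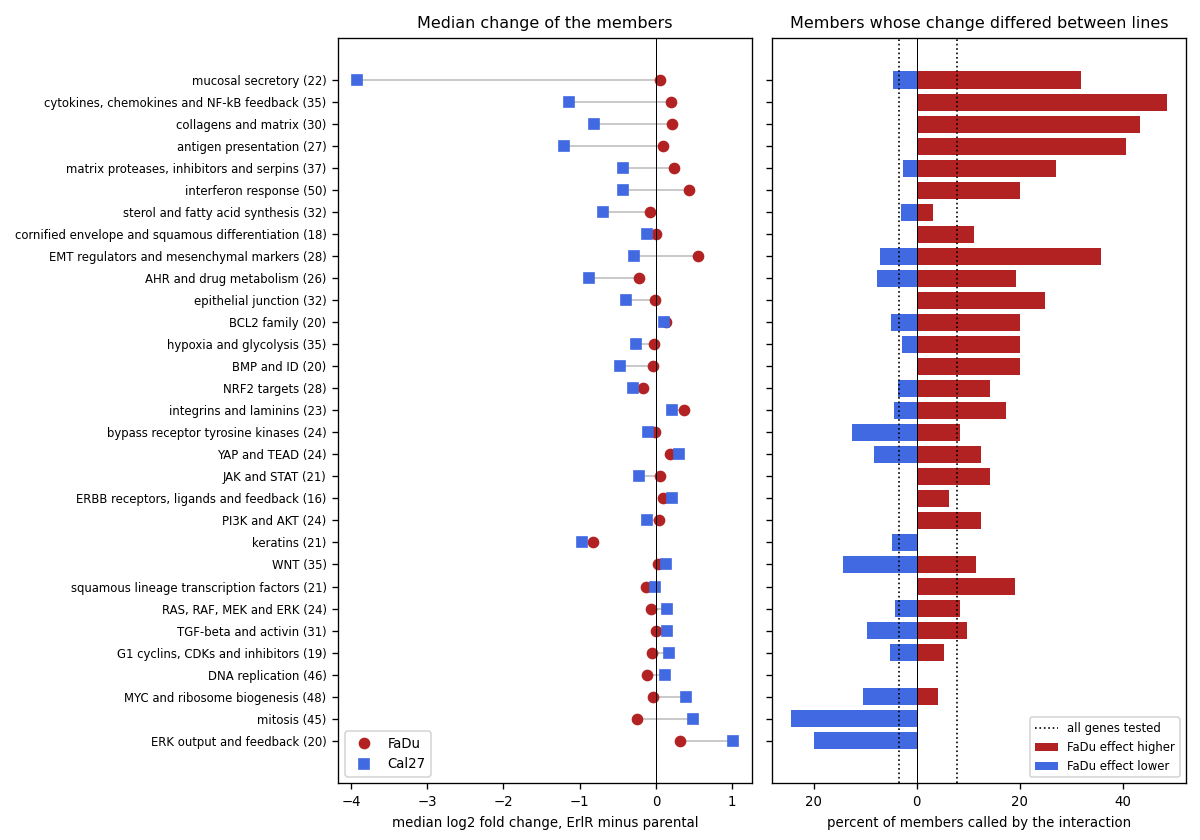
Left, median log2 fold change of the members of 31 gene lists in FaDu (circles) and Cal27 (squares), with the number tested in brackets. Right, percent of members called by the interaction with the higher (right) or lower (left) value in FaDu, with dotted lines for all genes tested. The mucosal secretory list has the largest gap between lines. All members called in the mitosis and ERK output lists, and the 1 called keratin, have the lower value in FaDu.

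Of the 16 ERBB receptors, ligands and feedback genes tested, 0 were called in FaDu and 3 in Cal27, where the ligands AREG (1.49) and TGFA (1.12) rose and EGF fell by 3.66. Over all genes 1.82% were called in FaDu and 13.1% in Cal27. By the interaction 6.25% of the 16 differed, against 11.2% of all genes. EGFR was at 491 to 592 CPM in the 4 FaDu libraries and 1255 to 1598 CPM in the 4 Cal27 libraries, with log2 fold changes of 0.17 in FaDu and 0.20 in Cal27. The 95% interval of the difference ran from -0.39 to 0.31. ERBB2 (difference 0.16), ERBB3 (0.04), MET (0.40), HRAS (-0.18), AKT1 (-0.22) and MAPK3 (0.13) were not called either. Of 24 genes of RAS, RAF, MEK and ERK, 1 rose in Cal27 (NRAS), 2 fell there (KSR1, a scaffold of the cascade, by 2.49 and RASAL1, a RAS GTPase-activating protein, by 4.12) and 0 were called in FaDu. Besides NRAS, the effect differed for RASAL1 (2.93) and the RAS-related GTPase RRAS (1.25), both higher in FaDu. The share that differed, 12.5% of the 24, was near the 11.2% of all genes. The RASAL1 call was lost without any 1 of 7 libraries (adjusted p up to 0.116, edgeR), FaDu ErlR replicate 1 being the exception.

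NRAS (ENSG00000213281, chromosome 1, 114704469 to 114716894), a RAS GTPase, stood at 245, 240, 248 and 270 CPM in the FaDu libraries, at 123 and 116 in Cal27 parental and at 645 and 592 in Cal27 ErlR. The FaDu libraries lay within 240 to 270 CPM whatever their group, whereas Cal27 moved from below them to above them. The log2 fold change was 2.37 ± 0.10 in Cal27 and 0.09 ± 0.10 in FaDu, a difference of -2.28 ± 0.14 (adjusted p = 4.66e-05, edgeR).

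In Cal27, ERK output and feedback genes were higher as a group. All 20 members had a positive value there and 12 did in FaDu, with medians of 1.01 and 0.31, 9 against 2 were called rises, and 4 differed between the lines, all lower in FaDu. DUSP6 (ENSG00000139318, chromosome 12, 89347232 to 89353271), a phosphatase of ERK, was at 18.8 and 14.8 CPM in Cal27 parental, 74.9 and 70.6 in Cal27 ErlR, 42.4 and 50.9 in FaDu parental and 37.6 and 76.2 in FaDu ErlR. The FaDu groups overlapped and the Cal27 groups did not, and the difference was -1.83 ± 0.38 (adjusted p = 0.0102, edgeR). ETV5, an ETS factor (difference -2.40), the phosphatase DUSP5 (-2.18) and the cyclin CCND1 (-1.45) behaved alike, with negative FaDu values that were not called. SPRY4 rose by 2.69 and FOSL1 by 1.64 in Cal27, with 1.00 and 0.66 in FaDu and no called difference. SPRY2 rose in FaDu, by 1.17, with 0.63 in Cal27. With ERCC scaling 17 members were positive in FaDu and 20 in Cal27, with medians of 0.77 and 1.03. On that scale 6 were called rises in FaDu and 10 in Cal27, and 4 differed, all lower in FaDu. The FaDu ErlR libraries were uneven for this list, replicate 2 being higher by a median of 0.57, and without it 10 members differed.

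The mitosis list parted the lines in direction. Of 45 members, 43 had positive values in Cal27 and 8 in FaDu, with medians of 0.49 and -0.25, and 11 were called by the interaction, all lower in FaDu. AURKA (ENSG00000087586, chromosome 20, 56369389 to 56392337), the spindle kinase, was at 175 and 170 CPM in FaDu parental, 121 and 125 in FaDu ErlR, 175 and 157 in Cal27 parental and 297 and 307 in Cal27 ErlR. The parental lines had like levels and the resistant lines parted from them in opposite directions, with log2 fold changes of -0.49 ± 0.10 (adjusted p = 0.0279) and 0.86 ± 0.10 (adjusted p = 0.000286, edgeR), both under the fold limit. The difference was -1.35 ± 0.14. AURKA lies in a window of chromosome 20, from 55000001 to 60000000, where 5 of 25 genes tested were positive in FaDu and 18 in Cal27. The medians of that window were -0.34 and 0.26. With ERCC scaling the FaDu median of all genes was 0.49, about the size of the AURKA fall. CCNA2 (-1.51), UBE2C (-1.46), CENPA (-1.41), PLK1 (-1.20), CCNB1 (-1.16) and TPX2, the activator of AURKA (-1.04), also differed, and in Cal27 CCNA2, UBE2C and CENPA passed the fold limit. MKI67 gave -0.70. Without Cal27 parental replicate 2, 7 members differed. With ERCC scaling the FaDu median turned to 0.22, 38 of 45 were positive in FaDu, and 2 members were called by the interaction. In the DNA replication list 0 of 46 members were called by the interaction, and WEE1, which restrains entry into mitosis, gave a difference of 0.22 (adjusted p = 0.447).

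**Figure D4:**
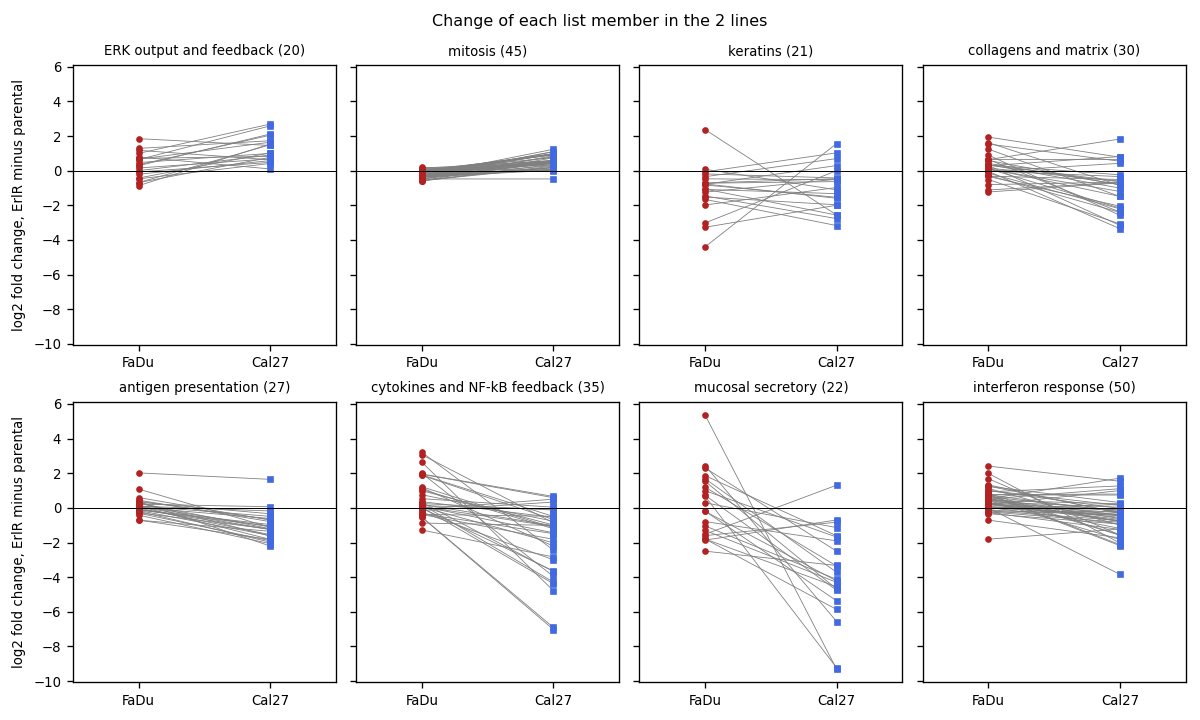
Log2 fold change of each member of 8 gene lists in FaDu (circles) and Cal27 (squares), lines joining the same gene, number of members in brackets. Lines run mostly upward to Cal27 in ERK output and mitosis, and downward in antigen presentation, cytokines and mucosal secretory genes, while most keratins lie below 0 in both lines, all but 2 in FaDu and all but 4 in Cal27.

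Most secretory genes of the mucosa fell in Cal27. Of 22 tested, 16 were called lower in Cal27 ErlR and 0 were called in FaDu, with medians of -3.92 and 0.05. By the interaction 7 had the higher effect in FaDu and 1 the lower (36.4%, against 11.2% of all genes). LCN2 (ENSG00000148346, chromosome 9, 128149071 to 128153455), the iron-sequestering lipocalin, was at 529 and 1402 CPM in Cal27 parental, 55.3 and 19.8 in Cal27 ErlR, 17.5 and 22.7 in FaDu parental and 70.2 and 45.9 in FaDu ErlR. The groups were separate in both lines in opposite directions, but the FaDu value of 1.53 was not called (adjusted p = 0.122, edgeR) and that in Cal27 was -4.69. Complement C3 (-3.72) and factor B (CFB, -5.37) fell likewise, as did the mucins MUC1 (-4.30), MUC4 (-5.87) and MUC16 (-4.22). In Cal27 parental this list differed between the libraries, replicate 2 being higher by a median of 1.16 on the log2 scale. The members called higher in FaDu by the interaction ranged from 3 to 11 when a library was left out, with 3 without FaDu ErlR replicate 1.

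Cytokines, chemokines and NF-kB feedback genes had the largest share of differences, 17 of 35 (48.6%), all with the higher effect in FaDu. In Cal27 19 fell and 0 rose, with a median of -1.14, and in FaDu 4 rose and 1 fell, with a median of 0.20. The neutrophil chemokines CXCL1 (-3.64) and CXCL8 (-3.68), the monocyte chemokine CCL2 (-4.38), the prostaglandin synthase PTGES (-4.28), the adhesion molecule ICAM1 (-2.02) and the inhibitor NFKBIA (-1.03) fell in Cal27, with FaDu values between -0.02 and 0.31. IL1A, IL1B, IL24 and PTGS2 were the FaDu rises. TNFAIP2, induced by TNF, fell in both, by 1.28 in FaDu and 2.83 in Cal27, and its FaDu call was lost without either FaDu parental library or FaDu ErlR replicate 2 (adjusted p up to 0.119, edgeR). The receptor TNFRSF9 differed by 5.94 and CCL28 by 5.64, both from FaDu levels of 2.1 CPM or less. Cal27 parental replicate 2 was higher than replicate 1 by a median of 0.42 in this list.

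Antigen presentation genes fell in Cal27 in 15 of 27 cases, with 2 positive values, and 11 (40.7%) differed, all higher in FaDu. HLA-B, a class I heavy chain, was at 107 and 78.0 CPM in FaDu parental, 246 and 146 in FaDu ErlR, 360 and 503 in Cal27 parental and 277 and 121 in Cal27 ErlR. The groups did not overlap in either line and the difference was 2.20 ± 0.51, although the FaDu value of 1.08 was not called. Reads of HLA genes can be split between near-identical copies, so single HLA values are uncertain. The immunoproteasome subunits PSMB8 (-1.10), PSMB9 (-1.55) and PSMB10 (-2.07) and the class I regulator NLRC5 (-1.25) fell in Cal27. CD274 was the exception, as a shared rise. Without Cal27 parental replicate 2, 4 members differed.

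Of 50 interferon response genes, 39 were positive in FaDu and 12 in Cal27, with medians of 0.43 and -0.43. Calls were fewer, at 2 rises in FaDu, 3 rises and 10 falls in Cal27 and 10 differences, all higher in FaDu. GBP2, a guanylate-binding protein, fell by 3.84 in Cal27, TRIM22 by 2.12 and GBP1 by 2.18. RSAD2, an antiviral enzyme, was called by the interaction alone (3.24 ± 0.96), from FaDu ErlR libraries at 16.8 and 4.19 CPM. For this list FaDu parental replicate 2 was higher than replicate 1 by a median of 0.48 and FaDu ErlR replicate 2 was lower by 0.63, and the count of differences ranged from 6 without FaDu parental replicate 1 to 17 without FaDu ErlR replicate 2.

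Collagens and matrix genes fell in Cal27 in 12 of 30 cases, and 13 (43.3%) differed, all with the higher effect in FaDu. COL5A1, a fibrillar collagen chain, was at 61.4 and 90.0 CPM in Cal27 parental and 10.5 and 14.8 in Cal27 ErlR, against 1.89 to 6.03 CPM in FaDu. The difference was 3.48 ± 0.48 (adjusted p = 0.00193, edgeR). COL1A1 (3.03), the elastic fibre protein FBLN5 (3.46) and the type VI chains COL6A1 (2.14) and COL6A2 (2.56) followed. COL1A1 is also the main part of the fibroblast marker sum in Cal27 parental, whose part in these results was not tested. The marker COL1A2 was at 1.53 and 2.73 CPM in Cal27 parental and 0.558 and 0.949 in Cal27 ErlR. PDGFRB was at 1.76 and 1.42, then 0.062 and 0.534 CPM. Of the 10 fibroblast markers 6, DCN, LUM and FAP among them, were under 1 CPM in all 8 libraries. Without FaDu parental replicate 1, 7 members differed.

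Among the EMT regulators and mesenchymal markers, 12 of 28 (42.9%) differed, 10 with the higher effect in FaDu. The medians were 0.55 in FaDu and -0.29 in Cal27. CDH2, N-cadherin, was at 13.9 and 20.3, then 20.3 and 10.8 CPM in FaDu and at 54.6 and 52.9, then 16.9 and 19.8 CPM in Cal27, a difference of 1.42 ± 0.38. FN1 (-1.74), the crosslinking enzyme LOX (-2.57), the scaffold NEDD9 (-2.30) and CDH11 (-3.50) fell in Cal27. TGFBI, SPARC and INHBA were among the FaDu rises. The effect was called lower in FaDu for 2 members. SNAI2, a repressor of E-cadherin, rose by 1.75 in Cal27 with 0.38 in FaDu (difference -1.37). The stromelysin MMP10 had a difference of -4.14 on uneven libraries, with 1.02 and 0.910 CPM in Cal27 parental and 9.79 and 0.949 in Cal27 ErlR, and its call was lost when any 1 of 6 libraries was left out (adjusted p up to 0.128, edgeR), FaDu ErlR replicate 2 and Cal27 ErlR replicate 2 being the exceptions. VIM, vimentin, was at 16.6 to 24.5 CPM throughout with a difference of 0.05. CDH1, E-cadherin, gave a difference of 0.89 (adjusted p = 0.00761), under the fold limit.

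In the epithelial junction list 5 of 32 genes fell in Cal27 and 8 (25%) differed, all higher in FaDu, with the claudins CLDN7 (2.50) and CLDN3 (3.20) and the tight junction adaptor TJP3 (4.76) the largest. Without FaDu parental replicate 2, 4 members of this list differed. Keratins lay mostly below 0 in both lines, with medians of -0.83 in FaDu and -0.97 in Cal27. Of 21, 3 were called lower in FaDu (KRT4, KRT13 and KRT7) and 9 in Cal27, 1 of them shared (KRT7, by 1.08 and 1.33), and KRT4 alone differed by the interaction. The FaDu call of KRT7 was lost when any single FaDu library was left out (adjusted p up to 0.211, edgeR). With ERCC scaling the FaDu median was -0.37. Of the squamous lineage factors and Notch genes, NOTCH3 (-3.13 in Cal27, -0.32 in FaDu), ELF3 (-3.06, -0.97) and JAG1 (-1.11, 0.84) differed between the lines. S100A9, a calgranulin, was at 88.7 and 282 CPM in Cal27 parental and 11.5 and 8.49 in Cal27 ErlR, and at 1.62 to 2.08 CPM in FaDu.

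Cell survival, growth factor receptor and WNT genes differed in both directions. Of 20 BCL2 family genes 25% were called by the interaction, 4 higher and 1 lower in FaDu. The share was 20.8% of 24 in the bypass receptor tyrosine kinase list (2 higher, 3 lower). It was 25.7% of 35 in the WNT list (4 higher, 5 lower), against 11.2% of all genes. BCL2L11, which encodes the BH3-only protein BIM, was at 22.4 to 24.2 CPM in all 4 FaDu libraries, at 19.0 and 37.4 in Cal27 parental and at 9.42 and 10.7 in Cal27 ErlR. It fell by 1.49 in Cal27 and differed by 1.52 ± 0.37 (adjusted p = 0.0193, edgeR). BIK, another BH3-only protein, fell by 2.20 in Cal27. The kinase receptor FGFR3 fell by 2.75 and EPHB2 by 1.06 in Cal27. LEF1, the WNT transcription factor, rose by 2.79 in Cal27 (difference -2.16), WNT4 fell by 4.89 and WNT3A by 4.74. Of the TGF-beta list 6 of 31 (19.4%) differed, 3 in each direction. BCAR3 and TRIM33, whose effects were lower in FaDu, lie on chromosome 1 between 90000001 and 120000000, where the Cal27 median over all genes was 1.09. MYC gave -0.04 in FaDu and -0.03 in Cal27 and TGFB1 0.68 and 0.58, with no called difference. In the MYC and ribosome biogenesis list, 39 of 48 members were positive in Cal27 and 18 in FaDu, and ODC1 (-1.46), GAR1 (-1.31) and RRP9 (-1.29) had the largest differences. With ERCC scaling 48 were positive in FaDu and 39 in Cal27, with medians of 0.43 and 0.41. The interaction then called 3 members higher and 1 lower in FaDu, against 2 and 5 on the TMM scale. GAR1 and RRP9 lie in windows of 5 megabases on chromosomes 4 and 3 with Cal27 medians of 0.575 and 0.784.

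In the sterol and fatty acid synthesis list a single library decided the count. The median log2 fold change was -0.70 in Cal27 and -0.07 in FaDu, and 2 of 32 members differed. Cal27 ErlR replicate 2 was higher than replicate 1 by a median of 1.16, as in HMGCS1, the HMG-CoA synthase, at 319 and 224 CPM in Cal27 parental and 52.1 and 270 in Cal27 ErlR. Without Cal27 ErlR replicate 2, 18 members differed with the higher effect in FaDu.

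Single libraries also decided the called difference of some list members. It was lost for CCND1, RSAD2, FBLN5, CDH2, CLDN3, TJP3, ELF3, BCL2L11, ODC1 and CCL28 without FaDu parental replicate 1, and for HLA-B, FBLN5, CLDN3, TJP3, ELF3, BCL2L11 and CCL28 without replicate 2 of that group. Cal27 parental replicate 2 was needed for TPX2, CCNB1, HLA-B, RSAD2, FBLN5, CDH2, CLDN3, ELF3 and BCL2L11, and replicate 1 for CDH2. Among the resistant libraries, the call was lost for TPX2, HLA-B, RSAD2, FBLN5, CDH2, CLDN3 and ELF3 without FaDu ErlR replicate 1, and for FBLN5, TJP3 and CCL28 without replicate 2. Without Cal27 ErlR replicate 1 it was lost for TPX2, RSAD2, FBLN5, CDH2, CLDN3, TJP3, ELF3, BCL2L11 and CCL28, and without replicate 2 for RSAD2. No value of these genes changed sign.

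Many of the Cal27-specific rises lay in a few chromosome stretches. In windows of 5 megabases with at least 10 genes tested, the median Cal27 log2 fold change ran from -1.06 to 1.53 and the FaDu median from -0.44 to 0.65. FaDu had windows of its own, with smaller medians. On chromosome 1 from 150000001 to 155000000, 13 of 92 genes were positive in FaDu (median -0.43, Cal27 0.08). On chromosome 20 from 60000001 to 65000000, 5 of 54 were (-0.44, Cal27 0.06). On chromosome 6 from 145000001 to 150000000, 24 of 25 were (0.44, Cal27 0.05). The highest Cal27 medians were in chromosome 1 from 110000001 to 120000000, the stretch that holds NRAS. In the 6 neighbouring windows of chromosome 1 from 90000001 to 120000000, 133 of 163 genes (81.6%) had a positive value in Cal27 and 82 (50.3%) in FaDu, with medians of 1.09 and 0.00. Of these genes 65 were Cal27-specific rises, among them RAP1A, RHOC, TRIM33, S1PR1, GCLM and PHGDH besides NRAS, and 76 had the lower effect in FaDu by the interaction. Each Cal27 ErlR library showed it, with median log2 differences from the parental mean of 0.99 and 1.02, and those in FaDu ErlR were 0.02 and -0.01.

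A window of chromosome 22, from 35000001 to 40000000, held 28 Cal27-specific rises among 83 genes, with medians of 0.87 in Cal27 and -0.11 in FaDu, and includes CARD10, LGALS1 and TOMM22. Both stretches together held 93 of the 292 Cal27-specific rises (31.8%) and 1.61% of the genes tested. Chromosome 3 from 5000001 to 60000000 had a lower and wider rise, with 285 of 335 genes positive in Cal27 and a median of 0.66 against 0.00 in FaDu. Chromosome 4 from 35000001 to 50000000 ran the other way, with 6 of 49 genes positive in Cal27, a median of -0.89 and 16 falls, against 0.20 in FaDu. A window of chromosome 9, from 5000001 to 10000000, which holds CD274, was high in both lines, with 15 of 16 genes positive in Cal27 and 16 of 16 in FaDu and medians of 0.949 and 0.583. Over all genes outside the stretches of chromosomes 1, 22, 3 and 4 the medians were -0.02 in Cal27 and 0.01 in FaDu. Single windows outside them moved too. Of 489 windows, 36 had a Cal27 median above 0.5 and 24 had one below -0.5. Chromosome 22 from 50000001 to 55000000 had 2 of 28 genes positive in Cal27 (median -0.83). Chromosome 18 from 35000001 to 40000000 had 2 of 19 (-0.781), and chromosome 4 from 95000001 to 100000000 had 10 of 12 (0.707). The stretches and windows named were chosen after their values were seen and carry no test. RNA levels do not show the number of DNA copies, which was not measured here.

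**Figure D5:**
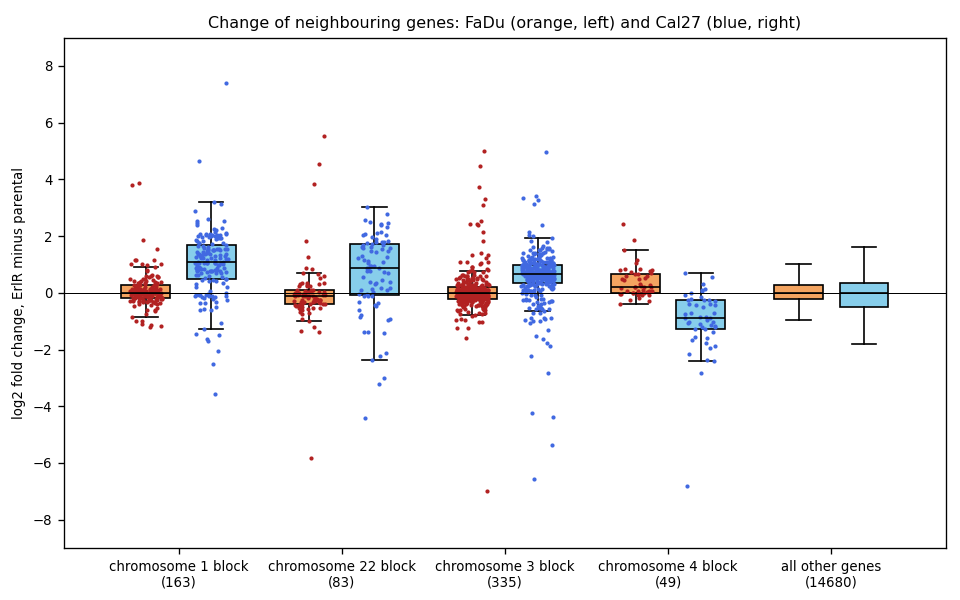
Log2 fold change of genes in 4 chromosome stretches and of all other genes in FaDu (left box, orange) and Cal27 (right box, blue), with boxes for the quartiles, a line for the median and points for single genes. In chromosomes 1, 22 and 3 the Cal27 boxes lie above those of FaDu, in chromosome 4 below, and the other 14680 genes are centred near 0 in both lines.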

How the data were processed

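Poly(A)-selected RNA with ERCC spike-in from FaDu and Cal27 parental and ErlR cells was sequenced as paired reads, 2 biological replicates per group. By the submitters' processing notes the authors trimmed reads with Trimmomatic 0.36, aligned them to GRCh38 with STAR 2.5.2b and counted them with featureCounts of Subread 1.5.2. The deposited count files hold whole-number counts per Ensembl gene, without normalization, for 58051 genes and 92 spike-ins, which stayed out of library sizes. Whether counting used strand is not given in the sources used here. The authors' normalized tables were not used, and 0 columns were left without a sample. Of the identifiers, 56948 were found in GENCODE v44, which gave symbols and coordinates.

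The edgeR package (4.0.16, under R 4.3.3) was applied to these counts (filterByExpr, TMM, glmQLFit, glmQLFTest, Benjamini-Hochberg adjustment over 15310 genes), in 1 fit of the 8 libraries with 4 residual degrees of freedom and no block. The biological coefficient of variation was 14.5%. The interaction is the FaDu log2 fold change minus the Cal27 one. Values are CPM per library and log2 fold changes ± SE. The tests were tried on simulated counts first.

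The genes compared and the lists were chosen with earlier results of these data known. The genes named are the 6 shared rises and 6 shared falls with the largest smaller fold change, up to 5 opposite and 5 line-specific genes in each direction by the interaction (protein-coding, mean of at least 5 CPM, libraries not overlapping), up to 3 differing and 2 shared members of each list, and genes the paper names. Some genes that the rule names are not reported here. Other list members, the neighbours on chromosomes, the promoter printed and HMGCS1 were chosen after their values were seen. Alternatives were DESeq2 1.42.0, glmTreat, unadjusted p-values, all 12 libraries, a replicate block, other filters, upper-quartile, DESeq2 and ERCC scaling, and leaving out each library. Promoters came from RefSeq on GRCh38.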

Additional observations from a re-analysis of the deposited data

Results flagged for a closer look

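The 112 named genes below were flagged because the ErlR effect differed between FaDu and Cal27 by edgeR's interaction test. Each value is the FaDu log2 fold change minus the Cal27 log2 fold change, so that a positive value means a higher effect in FaDu. No group held enough libraries to look for single outlying samples.

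Among genes called in both lines the values were 4.72 for MMP7, 5.60 for SLC12A7, 5.38 for PRSS12, 5.13 for SAMD5, 3.62 for PYCARD, 3.43 for CDK14, -4.48 for MYEOV and -3.13 for CCBE1. FaDu-specific changes gave 4.50 for APOBEC3G, 4.44 for SDR42E1, 3.93 for PTGS2, 3.46 for RNASE7, 3.15 for MAGEA3, -5.96 for KRT4, -1.87 for LIX1L, -1.80 for CDR2L, -1.75 for FZD2 and -1.67 for COL9A3. Cal27-specific changes gave -5.18 for ABO, a fitted value that is no measure of size since ABO was at 0 in both Cal27 parental libraries, -4.42 for MMP1, -3.17 for S1PR1, -2.82 for CARD10, -2.80 for ETV1, 7.85 for PDZK1IP1, 7.68 for PLEKHG4B, 7.42 for CCL20, 6.64 for UGT8 and 6.59 for IGFBP3.

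Signalling genes gave 3.76 for EGF, 2.93 for RASAL1, -2.28 for NRAS, 1.25 for RRAS, -2.40 for ETV5, -2.18 for DUSP5, -1.83 for DUSP6, 2.24 for GAB2, 1.32 for PDK1, -2.18 for IGF2, 1.92 for FGFR3, 1.65 for EPHB2, 1.45 for STAT5A, 1.06 for OSMR and 1.03 for STAT6. The calls of EGF and of TGFBR3, which follows, were lost whichever of the 8 libraries was left out, and that of RASAL1 without any 1 of 7. Genes of TGF-beta, BMP, WNT and YAP signalling gave 3.01 for INHBA, -2.76 for TGFBR3, -1.90 for BCAR3, 4.40 for SMAD9, 2.68 for GDF15, 1.56 for BMP2, 5.33 for WNT3A, 4.04 for WNT4, -2.16 for LEF1, 4.21 for ANKRD1, 3.88 for VGLL1 and -1.34 for TEAD2.

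Junction, mesenchymal and matrix genes gave 4.76 for TJP3, 3.20 for CLDN3, 2.50 for CLDN7, 5.54 for CDH11, -4.14 for MMP10, 3.29 for LOX, 1.42 for CDH2, 2.90 for NEDD9, 3.48 for COL5A1, 3.46 for FBLN5, 3.03 for COL1A1, 4.18 for SERPINB3, 4.42 for LAMA4, 2.61 for ITGB6 and -1.62 for ITGB5. Squamous and mucosal genes gave 4.05 for S100A9, 2.34 for SCEL, 2.81 for NOTCH3, 2.08 for ELF3, 1.96 for JAG1, 6.22 for LCN2, 5.40 for C3 and 5.17 for CFB.

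Interferon, antigen presentation and cytokine genes gave 4.02 for ISG20, 3.83 for GBP2, 3.24 for RSAD2, 2.20 for HLA-B, 1.96 for HLA-F, 1.77 for HLA-DRA, 5.94 for TNFRSF9, 5.64 for CCL28 and 1.56 for TNFAIP2. Cell cycle and growth genes gave -1.51 for CCNA2, -1.46 for UBE2C, -1.41 for CENPA, -1.35 for AURKA, -1.20 for PLK1, -1.16 for CCNB1, -1.04 for TPX2, -1.45 for CCND1, -1.46 for ODC1, -1.31 for GAR1 and -1.29 for RRP9. Metabolic and survival genes gave 3.27 for EGLN3, 3.07 for NDRG1, 1.55 for STC2, 1.45 for SREBF1, -1.29 for PMVK, 1.89 for AKR1C1, 1.56 for PIR, 1.44 for ME1, 4.71 for GSTM3, 3.16 for CYP1B1, 3.13 for AHRR, 1.63 for BIK, 1.52 for BCL2L11 and 1.43 for BOK.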

How the results depend on the processing

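With glmTreat against a log2 value of 1 the interaction gave 331 genes, FaDu ErlR 6, Cal27 ErlR 609, and 2 were shared, 0 opposite (35 by edgeR's quasi-likelihood test and 162 at an unadjusted p under 0.05), 3 FaDu-specific and 249 Cal27-specific. With unadjusted p-values FaDu ErlR gave 949 genes, with 167 shared, 162 opposite and 276 FaDu-specific. Without the filter on low counts it gave 672, with 131 shared, 122 opposite and 212 FaDu-specific. With at least 10 counts in every library 11881 genes were tested, and Cal27 ErlR gave 1306, of which 417 were rises and 889 falls. ERCC scaling gave 2775 interaction calls, 1545 in FaDu ErlR, 163 shared, 233 opposite and 581 FaDu-specific. DESeq2 gave 56 opposite genes. Leaving out each library in turn gave 1109 to 1819 interaction calls, 24 to 288 in FaDu ErlR (24 without FaDu parental replicate 1), 1304 to 2058 in Cal27 ErlR, 7 to 72 shared (7 without FaDu parental replicate 2 and 9 without replicate 1), 3 to 34 opposite (3 without FaDu parental replicate 1), 9 to 100 FaDu-specific (9 without FaDu parental replicate 1) and 684 to 1178 Cal27-specific (684 without Cal27 parental replicate 2). There the group with a lone library is assumed to vary like the others. Other alternatives moved these counts by less than 1.5 times. Of 146 named values called, 48 kept the call and sign in every alternative run and 0 changed sign.

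Differences that were not called crossed 0 in some settings: EGFR 0.0201 with at least 10 counts, 0.0316 with upper-quartile and 0.42 with ERCC scaling, MYC 0.047, 0.0576 and 0.47 in the same order, and HRAS 0.28, AKT1 0.25 and CDK1 0.0852 with ERCC scaling. With a library left out the range was -0.16 to 0.11 for EGFR, -0.34 to 0.34 for ERBB3, -0.46 to 0.0493 for HRAS, -0.00186 to 0.27 for MAPK3, -0.0882 to 0.20 for VIM, -0.17 to 0.17 for MYC and -0.22 to 0.35 for TGFB1. The cause of these changes was not tested.

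With the replicate number as a block the interaction gave 1628 genes, 1123 with the higher effect in FaDu and 505 with the lower. The deviations of equally numbered libraries from their group means correlated at -0.09 in FaDu and 0.10 in Cal27, so the numbers were not taken to pair the samples. Precision was limited by 2 libraries per group.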
